A study of Mus musculus with 6 samples.

Results

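The mucosa of the glandular stomach of a 50-week-old mouse without A4gnt was compared with that of a 50-week-old wild-type mouse. The comparison was defined by the labels and holds 2 of the 6 arrays of the study, the array labelled Wild type 50W and the array labelled A4gnt null 50W. Both mice were C57BL/6J, and each array carried RNA from the gastric mucosa, taken off the muscle layer beneath it, of 1 mouse. The other 4 arrays, of mice aged 5 and 10 weeks with 1 mouse for each genotype and age, are used to show where the 50-week mice stood. No agent was given in any group, per the labels. The labels do not describe the A4gnt allele or give the sex of the mice.

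A4gnt encodes a glycosyltransferase of the Golgi that adds a terminal α1,4-linked N-acetylglucosamine to the O-glycans of the gland mucin Muc6. This sugar is carried by the mucus of neck cells in the corpus and of pyloric gland cells in the antrum, while the surface pit cells above them make the mucin Muc5ac. The corpus gland also holds parietal cells, which secrete acid, and chief cells, which secrete pepsinogen. Mice without A4gnt are known for hyperplasia, dysplasia and adenocarcinoma of the antral mucosa, so the 50-week comparison asks what the mucosa of an old mutant expresses that the mucosa of an old wild-type mouse does not.

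Levels are given as scaled signal, the processed signal of a gene's probe divided by the 75th percentile of its array, so a level of 1 equals that percentile. A level can be compared between arrays for one and the same gene, and not between genes. Differences are log2 of null over wild type. Leaving out control spots, each array held 43020 spots, and between 54.8% and 59.2% of them were well above background. At 50 weeks that percentile stood at 289.4 signal units in wild type and 402.8 in null. With 1 mouse on each side a difference at 50 weeks has no replicate check and no p-value, and the number of arrays limits the precision. All wild-type RNA was hybridised on slide 1 and all null RNA on slide 2, so slide and genotype cannot be told apart at any age. The tissue is bulk RNA, in which fewer cells of a type and less RNA per cell cannot be told apart. The defining genes of surface, neck, parietal, chief and hormone cells were above background on both 50-week arrays.

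The sex-linked transcripts set the 5-week mice apart from the older ones. On both 50-week arrays the Y-linked genes Ddx3y (0.697 in wild type, 0.624 in null) and Eif2s3y (2.36 and 2.71) were above background, and Xist, the RNA of the inactive X chromosome, was not. The 10-week arrays showed the same pattern. On both 5-week arrays Xist was above background (0.628 and 0.264) while Ddx3y, Eif2s3y and Kdm5d were not. The 2 mice compared here matched each other in these transcripts, and a comparison with the 5-week pair crosses a difference in them.

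The targeted gene was read first. Its probe, shown because it is the only check of the genotype on the array, lies in a frame without stop codons and is placed by the files on mm9 at chr9:99521093-99521152, plus strand (NM_001077424).
A4gnt probe: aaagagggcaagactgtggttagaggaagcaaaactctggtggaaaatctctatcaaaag
In wild type at 5, 10 and 50 weeks the scaled signal of A4gnt was 0.644, 0.911 and 0.912. In null at those ages it was 0.00909, 0.00897 and 0.00525, not well above background. The old null mouse thus had at least 36.4-fold less A4gnt signal. This bound sets the wild-type level against the lowest signal called above background on the null array. All bounds below are made in this way, with the array that lacks the signal as the floor. Where a gene's own signal on that array was higher than the floor, that signal was used. Which part of the gene was removed is not given in the sources used here, and a probe outside it would check nothing.

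At 50 weeks 17065 genes and unnamed transcripts were well above background on both arrays. Of these, 341 (2.0%) were 2-fold or more higher in null, and 736 (4.31%) lower. At 4-fold there were 53 higher (0.311%) and 116 lower (0.68%). Of 1177 further genes above background in the null array alone, 102 were at least 2-fold higher by their bound. Of 429 above background in the wild-type array alone, 300 were at least 2-fold lower. The lowest signal called above background was 10.87 units in wild type and 10.1 in null, so the scaled floor was lower in null. A lower bound thus reaches 2-fold more readily than a higher one, and counts of bounds cannot be compared between the directions. The median difference of all measured genes was -0.00167. Scaling each array to its median in place of the 75th percentile shifted all differences by 0.19 and gave 508 higher and 527 lower, so the excess of lower over higher genes depends on the scaling. The 50-week pair was the most alike of the 3 pairs by this count, with 6.31% of measured genes over 2-fold apart. At 5 weeks 3.55% were higher and 4.85% lower, and at 4-fold 0.677% and 0.342%. At 10 weeks the shares were 4.3% and 5.27%, and at 4-fold 0.988% and 0.935%.

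**Figure D1:**
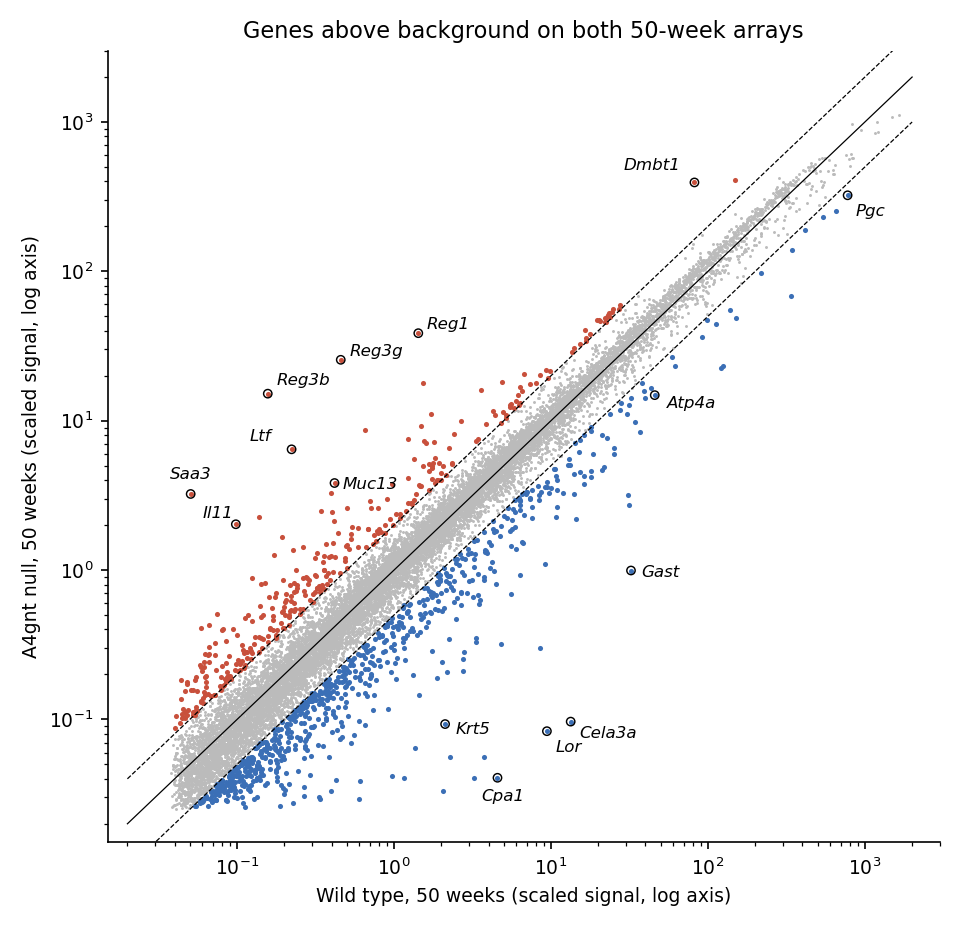
Scaled signal of every gene well above background on both 50-week arrays, wild type on the x axis and A4gnt null on the y axis, both log axes. The solid line marks equal levels and the dashed lines a 2-fold difference; 341 genes (red) lie above and 736 (blue) below, with the Reg lectins, Ltf, Saa3 and Il11 farthest above and Cela3a, Cpa1, Lor, Krt5 and Gast far below.

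The largest measured differences on the null side were in secreted defence proteins of the epithelium. Reg3b, a C-type lectin that binds bacteria, had scaled signals of 1.5, 0.085 and 0.157 on the wild-type arrays from 5 to 50 weeks, and of 3.28, 5.25 and 15.2 on the null arrays. At 50 weeks that is a 96.8-fold difference (6.60 on the log2 scale), and every null array lay above every wild-type array. Its neighbour in the family, Reg3g, which kills Gram-positive bacteria, read 0.143, 0.405 and 0.458 in wild type and 2.19, 4.72 and 25.6 in null. The 55.9-fold difference of Reg3g at 50 weeks (5.80) was larger than those at 5 weeks (3.94) and 10 weeks (3.54), and here too the genotypes did not overlap. Reg1, a lectin known as a growth factor of gastric and pancreatic cells, reached 38.5 in the null array against 1.43 in wild type (4.76). For Reg1 the genotypes overlapped, since the 5-week arrays read 13.7 in wild type and 11.3 in null.

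Iron-binding and acute-phase proteins stood high in the old null mouse as well. Ltf, lactoferrin, read 0.0235 (not well above background), 0.200 and 0.222 in wild type and 0.0751, 0.239 and 6.43 in null, so its 28.9-fold difference at 50 weeks (4.85) came with a level that no younger array approached. Lcn2, which captures bacterial siderophores, read 0.224, 0.406 and 0.194 in wild type and 0.596, 1.65 and 1.66 in null, an 8.55-fold difference at 50 weeks (3.10). Saa3, a serum amyloid protein made in inflamed epithelium, differed by 6.00, with 0.0506 in wild type and 3.23 in null. Its null level was higher still at 10 weeks (6.33). Lrg1, a leucine-rich glycoprotein induced in inflammation, differed by 3.56, and Wfdc18, a small whey acidic protein, by 3.72, less than at 5 weeks (5.04) and 10 weeks (7.78). Of the 18 measured Reg lectins and antimicrobial genes, 8 were at least 2-fold higher and 2 lower. The median of that list was 0.41. Reg2, another lectin of the family, chosen after its values were seen, stood at -2.29. It read 20.1 and 16.1 on the 5-week arrays and 0.402 and 0.0822 at 50 weeks.

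Single cytokines and chemokines of the innate response stood higher in the old null mouse, some of them against a wild-type level at background. Il11, a cytokine of the gp130 family that acts on gastric epithelium and stroma, read 0.0988, 0.476 and 0.0981 in wild type and 0.897, 1.31 and 2.03 in null. The 20.6-fold difference of Il11 (4.37) was the sixth in size among measured named genes, and its genotypes did not overlap. Il1b, an inflammasome cytokine, was at least 15.6-fold higher. The neutrophil attractants Cxcl5 and Cxcl1 were at least 14.2-fold and 12.5-fold higher, and the monocyte attractant Ccl2 at least 6.00-fold. Cxcl5 stayed at background in wild type at each age and read 0.0587, 0.381 and 0.534 in null. Il1rl1, the receptor of interleukin 33, differed by 4.05 by its brightest probe and by 1.77 by another, and Il33 itself, an alarmin of epithelial and stromal cells, by 1.17. Casp1, the protease that matures interleukin 1, differed by 2.05 and Il18r1 by 1.84.

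Counted as lists, 4 of 8 measured genes of the interleukin 1 and 33 family were at least 2-fold higher and 1 lower. Of 12 genes of the gp130 axis 3 were higher and 0 lower, with the receptor Osmr at 1.75 and the Stat3 target Socs3 at 0.91. The CXC chemokine genes had 2 of 9 higher and 2 more by bounds, and the CC chemokine genes 1 of 11 higher, 1 lower and 2 more higher by bounds. Ccl17, which attracts T cells, differed by 1.84 and Ccl21a, a lymphoid chemokine, by -1.17. Medians of these lists were 0.90, -0.02 (0.17 with median scaling), 0.06 and 0.04, so the medians of the last 3 lay near 0 while single members differed. Cytokines of lymphocytes were hardly seen: 16 of 21 other cytokine and receptor genes, Ifng and Il17a among them, were below background on both arrays.

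**Figure D2:**
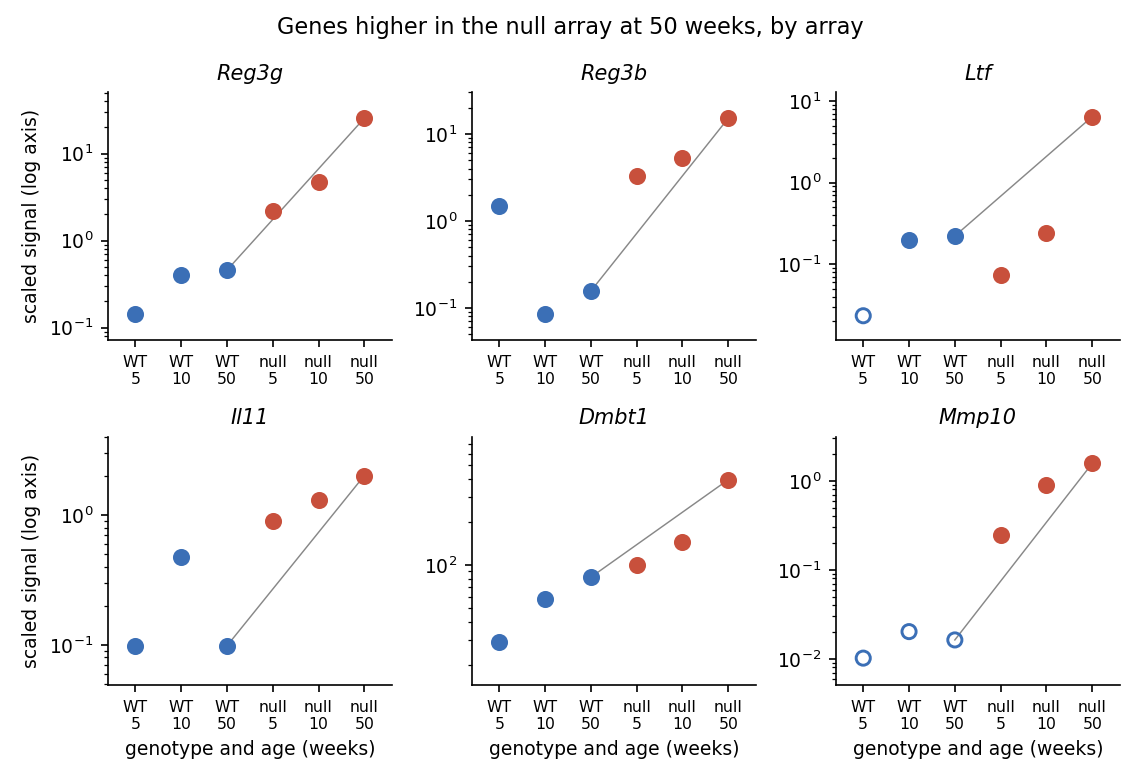
Scaled signal (log axis) of 6 genes higher in the null array at 50 weeks, on the wild-type (blue) and null (red) arrays of 5, 10 and 50 weeks. Each point is 1 mouse, open points are not well above background, and the line joins the 50-week pair; Ltf is high on the 50-week null array alone, while Il11, Mmp10, Dmbt1 and the Reg3 lectins are higher in null than in wild type at every age.

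Markers of the leucocytes themselves differed less. S100a8, a calcium-binding protein of neutrophils and monocytes, read 0.0441 in wild type and 0.184 in null at 50 weeks (2.06), but 0.406 in wild type at 10 weeks, above the old null mouse. S100a9, its partner, differed by 1.13 and Ly6g, the neutrophil antigen, was barely above background in null (0.0314). Of 10 measured neutrophil and monocyte genes 5 were higher and 0 lower, with a median of 0.60, which was 0.10 with the normexp background correction. Set against the 10-week wild-type array in place of the 50-week one, the neutrophil median was -0.64. Macrophage genes had 3 of 18 higher and 0 lower, with a median of 0.42, which was 0.10 with normexp and -0.04 against the 10-week wild-type array. Csf1r differed by 0.21 and Adgre1 by 0.00371, while Cd14, the endotoxin co-receptor, differed by 1.77, the protease Ctss by 1.63 and the glucan receptor Clec7a was at least 7.91-fold higher. Clec7a was chosen after its values were seen.

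The T cell genes Cd3e (-0.26) and Cd4 (-0.54) were under 2-fold apart, and Cd8a was below background on both arrays. Of the 7 T cell genes measured on both arrays 0 were 2-fold apart, while by bounds 2 more were at least 2-fold higher and 1 lower. Of 8 measured B and plasma cell genes 2 were higher and 1 lower, at -1.45, and 5 lay above 0. Their median was 0.46, which was 0.08 with the normexp background correction. Cd79a was below background on both arrays, Jchain, of IgA plasma cells, differed by 0.46 and Pou2af1 by 1.19. Pigr, which carries IgA across the epithelium, differed by 1.06 by its brightest probe and by 3.37 by another. Of the mast cell proteases, Mcpt1, Mcpt2 and Mcpt4 differed by 1.68, 1.72 and 2.04, while Cpa3, the mast cell carboxypeptidase, stood at -0.10. These were the 3 higher of 10 measured mast cell genes, of which 1 was lower and 4 lay above 0, with a median of -0.11 (0.08 with median scaling). Mcpt2, a protease of mucosal mast cells, read 0.391, 0.811 and 1.52 in wild type and 1.67, 2.77 and 5.00 in null, so its level stood in the order of age in both genotypes. Antigen presentation through MHC class II had 3 of 10 genes higher and 0 lower, among them H2-Ab1 (1.16) and the invariant chain Cd74 (1.13), with H2-Aa at 0.09.

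Interferon-response genes lay near 0 in the old pair and below it in the younger pairs. Their median difference was -0.14 at 50 weeks (0.05 with median scaling), against -1.35 at 5 weeks and -0.75 at 10 weeks. At 50 weeks 4 of 26 measured genes were at least 2-fold higher and 2 lower, while 17 of 27 were lower at 5 weeks. Wild-type levels were not the same at the 3 ages. Isg15, a ubiquitin-like protein induced by interferon, read 7.13, 3.18 and 1.58 in wild type and 1.5, 0.634 and 0.805 in null. Oas2, a sensor of double-stranded RNA, kept a large difference at 50 weeks (0.466 in wild type, 0.0906 in null, -2.36). The guanylate-binding protein Gbp2 went the other way, with 0.349, 0.218 and 0.197 in wild type and 0.115, 0.117 and 0.863 in null. It was thus lower in null at 5 weeks (-1.60) and 10 weeks (-0.90) and 4.38-fold higher at 50 weeks. The GTPases Igtp (1.34) and Irgm1 (1.11), which like Gbp2 are textbook targets of interferon gamma, were also higher at 50 weeks, although Ifng itself was below background.

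Genes of acid secretion were lower in the old null mouse as a group. Atp4a, the catalytic subunit of the proton pump, read 84.3, 85.7 and 45.8 in wild type and 61.6, 22.7 and 14.8 in null, a 3.09-fold difference at 50 weeks (-1.63). Its levels did not overlap between the genotypes at 10 and 50 weeks, but the 5-week null mouse stood above the 50-week wild-type mouse. Atp4b, the other subunit, differed by -1.14, the anion exchanger Slc26a7 by -1.86, the potassium channel Kcnj15 by -1.37 and the chloride channel Slc26a9 by -1.27. Of 16 measured parietal cell genes 9 were at least 2-fold lower and 0 higher, with a median of -1.11. The median at 10 weeks was -1.21 and at 5 weeks -0.42. The summed level of the list was 686.8 in wild type and 371.7 in null at 50 weeks, and 1012 and 824.1 at 5 weeks.

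Chief cell genes went the same way. Pgc, the pepsinogen C precursor, read 990, 1099 and 776 in wild type and 736, 601 and 323 in null (-1.26). Cblif, the intrinsic factor that binds vitamin B12, differed by -1.34 and Pdia2, a protein disulfide isomerase of secretory cells, by -1.62. Pga5, another pepsinogen, stood at -0.27 and read 1.14 and 0.944 at 50 weeks against 6.17 and 9.17 at 10 weeks. Of 11 measured chief cell genes 6 were lower and 0 higher, with a median of -1.24. Cpb1 (-6.06) and Rnase1 (-2.36), which are also pancreatic, are among the 6. The median at 10 weeks was -0.64.

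Among genes of the gland mucous cells, which normally express A4gnt, 6 of 9 measured ones lay above 0. Muc6, the mucin that carries the missing sugar, read 3.96, 10.2 and 6.12 in wild type and 7.21, 19.9 and 11.7 in null, a 1.91-fold difference at 50 weeks (0.93) close to those of the younger pairs (0.86 and 0.96). Tff2, the trefoil peptide secreted with it, differed by 0.23 at 50 weeks and by 1.29 at 5 weeks, and its wild-type level was 376, 616 and 824 at 5, 10 and 50 weeks. Gkn3, a gastrokine of neck and pyloric gland cells, differed by 1.45. Bpifb1, a secreted lipid-binding protein, differed by -0.79. Of the 9 genes 2 were higher and 0 lower, with a median of 0.69, and A4gnt itself is a further member, lower by its bound. Surface pit genes had 0 of 12 at least 2-fold apart, with Muc5ac at -0.61, Tff1 at -0.46 and Gkn1 at -0.06.

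Among metaplasia markers several stood higher. Dmbt1, a secreted scavenger receptor that binds mucin and bacteria, read 29.0, 57.5 and 82.0 in wild type and 99.6, 144 and 394 in null. Each null level of Dmbt1 lay above every wild-type level, and the 4.80-fold difference at 50 weeks (2.26) exceeded those at 5 weeks (1.78) and 10 weeks (1.33). Muc13, a membrane mucin, differed by 3.20 at 50 weeks, by 2.02 at 10 weeks and by -1.01 at 5 weeks. Muc4, another membrane mucin, read 1.8 in wild type and 7.21 in null, and Cftr, a chloride channel, 0.171 and 1.26 (2.88). Muc1 (-0.22), Muc20 (-0.68) and Muc16 (-0.95), further membrane mucins, lay below 0, and the median of the 5 measured membrane mucins was -0.22 (-0.04 with median scaling). Cd44, the hyaluronan receptor, differed by 1.51, and Wfdc2 by -0.03. Of 12 metaplasia markers 5 were higher and 0 lower, with a median of 0.69. Cldn7 (2.24) and Cldn2 (2.02), the latter a pore-forming claudin, were the only genes at least 2-fold higher of 19 measured claudin and junction genes. Cldn8 (-1.70) was the 1 lower, the median was 0.15, and the gastric Cldn18 stood at -0.04.

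Intestinal differentiation was not among the higher groups. Of 18 measured intestinal genes 0 were at least 2-fold higher and 5 lower, though 11 lay above 0 and the median was 0.26. Cdx2, the intestinal transcription factor, was above background in both old mice (0.122 in wild type, 0.228 in null, 0.90) and in the 10-week null mouse (0.288). Muc2, the goblet cell mucin, was above background in the old wild-type mouse alone, at least 4.85-fold lower in null. Tff3, the trefoil peptide of goblet cells, read 1.31, 3.38 and 6.68 in wild type and 3.36, 5.79 and 2.33 in null. It was thus higher in null at 5 and 10 weeks (1.36 and 0.77) and lower at 50 weeks (-1.52). Fabp1 and Fabp2, fatty acid-binding proteins of enterocytes, differed by -2.78 and -1.39. The apolipoproteins Apoa4 (-1.925) and Apoa1 (-1.29) were the remaining lower genes. Plasma proteins of the liver, given below, were lower as well, and the part of such tissue in these values was not tested. The stem cell and Wnt genes had 0 of 18 at least 2-fold apart, with Lgr5 at -0.48 and Sox9 at 0.60.

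Mitosis genes were high in both old mice and in the 10-week null mouse. Mki67, a protein of dividing cells, read 3.56, 3.63 and 13.5 in wild type and 5.93, 16.5 and 17.1 in null. Top2a, which untangles DNA in mitosis, read 0.150, 0.232 and 0.694 in wild type and 0.368, 1.1 and 1.04 in null. Of 27 measured mitosis and spindle genes 0 were at least 2-fold apart at 50 weeks, although 26 lay above 0, with a median of 0.50. At 10 weeks 26 of 27 were at least 2-fold higher, with a median of 2.21. Set against the 10-week wild-type array, the old null array gave a median of 2.25. The DNA replication genes had a smaller difference, with a median of 0.22 and 0 of 28 at 2-fold, and Pcna at 0.15 and Mcm2 at 0.03. The p53 target Cdkn1a stood at -0.09.

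**Figure D3:**
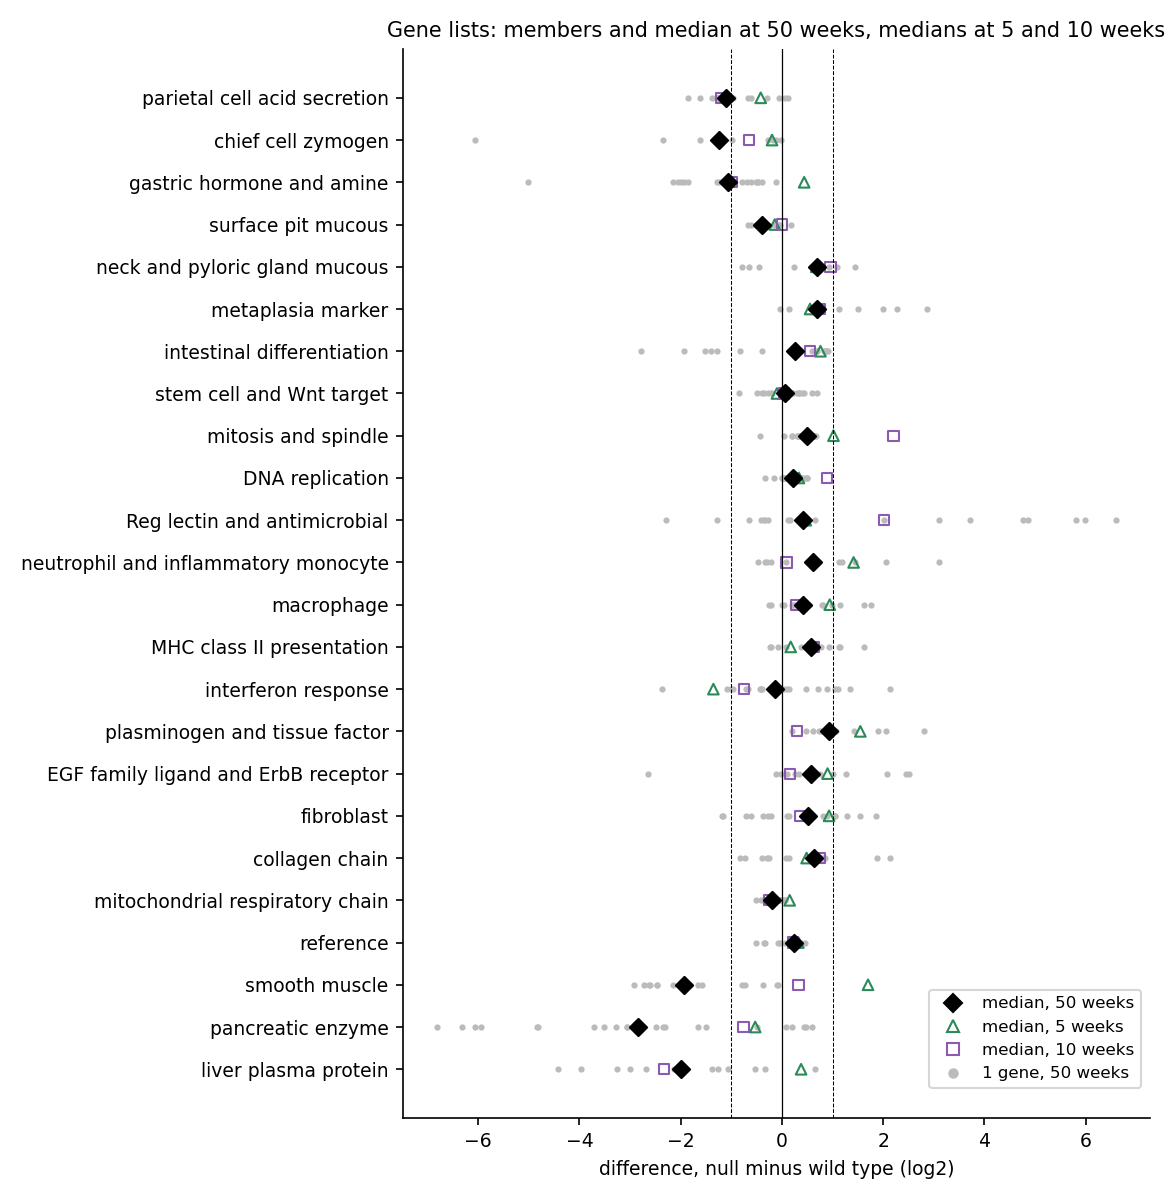
Differences at 50 weeks (log2, null minus wild type) of the measured members of 24 gene lists (grey points) with the list median (black diamond), and the list medians at 5 weeks (green triangles) and 10 weeks (purple squares); dashed lines mark 2-fold. Parietal, chief and hormone cell lists lie to the left of 0 at 10 and 50 weeks; mitosis is at 2.21 at 10 weeks and at 0.50 at 50 weeks, and smooth muscle lies at opposite sides at 5 and 50 weeks.

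Among enzymes that degrade matrix, the metalloproteinases Mmp10, Mmp3 and Mmp13, 2 stromelysins and a collagenase, were at least 41.7-fold, 23.5-fold and 19.2-fold higher at 50 weeks. Mmp10 read 0.0102, 0.0202 and 0.0163 in wild type, not well above background at any age, and 0.245, 0.905 and 1.57 in null. Mmp3 read 0.0111, 0.0841 and 0.00884 in wild type, above background at 10 weeks alone, and 0.333, 0.576 and 0.883 in null. Mmp13 read 0.00937, 0.0173 and 0.0135 in wild type, below background at each age, and 0.0502, 0.407 and 0.721 in null. Their levels thus stood in the order of age on the null arrays, with 1 mouse at each age. Mmp7, Mmp9 and Mmp12, matrix enzymes chosen after their values were seen, did not stand out. Mmp7 read 0.0654 in null (at least 1.74-fold higher), and Mmp9 and Mmp12 were below background on both arrays. Of the 11 genes of the list measured on both arrays 3 were higher and 1 lower, and 4 of the 22 on the array were below background on both, with the inhibitor Timp1 at 1.68 and Adam8 at 1.59. The median of the list was 0.05, and -0.13 with a normexp background correction.

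The 3 genes lie together on chromosome 9, and each has 1 match to the letters of the AP-1 site, TGANTCA, which Fos and Jun proteins bind, in the 300 bases around its RefSeq start. The 100 bases before each start (RefSeq, GRCm38.p6, plus strand) are shown because the genes stood high together, with the match in capitals. The windows are chr9:7502242-7502341, chr9:7445722-7445821 and chr9:7272414-7272513.
Mmp10: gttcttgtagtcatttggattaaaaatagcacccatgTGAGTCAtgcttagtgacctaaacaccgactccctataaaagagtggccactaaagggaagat
Mmp3: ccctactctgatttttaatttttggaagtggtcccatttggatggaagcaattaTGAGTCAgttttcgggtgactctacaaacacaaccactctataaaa
Mmp13: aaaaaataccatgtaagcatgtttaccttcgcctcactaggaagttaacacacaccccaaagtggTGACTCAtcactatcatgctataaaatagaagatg
The match begins 63 bases before the start in Mmp10, 46 in Mmp3 and 35 in Mmp13. The motif reads the same on both strands and was searched in 27025 promoter windows of 300 bases, of which 7.93% hold it. Among genes measured on both arrays 5.37% of 10691 with a window hold it, among genes at least 2-fold higher by value or bound 10.8% of 278, and among those lower 7.11% of 661. The higher and lower sets include genes above background on 1 array only, so the 5.37% is not their background. The higher set also holds the 3 Mmp genes that prompted the search, and the shares were not tested. Fos and Fosl1, genes of AP-1 proteins, differed by 0.80 and 1.20. Of 25 measured immediate-early and heat shock genes 2 were at least 2-fold higher and 1 lower, with a median of 0.25. A part of AP-1 proteins in the Mmp levels was not tested. A match of letters is a description of these windows and shows no binding.

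Some growth factors of the gland niche were among the higher genes. Nrg1, a ligand of ErbB receptors, read 0.139, 0.535 and 0.264 in wild type and 1.07, 2.26 and 1.44 in null (2.44). Ereg (2.51), Nrg4 (2.08) and Areg (1.27), also ErbB ligands, were higher at 50 weeks, while Egf was 6.27-fold lower (-2.65), with all null levels at or below 0.0749 and all wild-type levels at or above 0.198. Of 13 measured genes of this family 5 were higher and 1 lower. Fgf7, a keratinocyte growth factor of the stroma, differed by 1.41 and Hgf, which activates Met, was at least 2.25-fold higher. Fst, follistatin, which binds activin, was at least 49.6-fold higher, the largest bound among named genes on the null side, and Inhba, the activin A subunit, at least 9.34-fold higher. Fst read 0.136, 0.282 and 0.0320 in wild type, the last not well above background, and 1.34, 1.68 and 1.86 in null. Grem1, an inhibitor of BMPs, differed by 1.87 and Bmp4 by 0.63. By list, the Hgf and Fgf genes had 2 of 15 higher and 1 lower, with 1 more in each direction by bounds and a median of 0.11 (-0.11 with normexp). The activin, BMP and TGF-beta genes had 3 of 21 higher and 1 lower, with 2 more higher by bounds and a median of 0.04 (-0.07 with normexp). The prostaglandin genes had 2 of 12 higher and 1 lower, with 1 more in each direction by bounds and a median of -0.26. The prostaglandin synthase Ptgs2 was at least 8.02-fold higher, and Ptgs1 differed by 0.81.

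Clotting and fibrinolysis genes lay on the higher side. All 11 measured genes of the list lay above 0, 5 of them at least 2-fold, with a median of 0.92, which was 0.11 against the 10-week wild-type array. F3, tissue factor, differed by 2.06 and Plaur, the urokinase receptor, by 1.90, and Plau, urokinase, was at least 3.12-fold higher. For F3 the 10-week pair did not share the direction (4.50 in wild type, 4.04 in null). Fibroblast genes had 6 of 19 higher and 2 lower, with a median of 0.52, which was 0.07 with the normexp background correction and -0.25 against the 10-week wild-type array. Pdgfra, a receptor of platelet-derived growth factor, differed by 1.54 and Vim by 1.28, while Dcn stood at 0.55 and Pi16 at -1.17. Collagen chains had 2 of 16 higher, Col18a1 (2.14) and Col5a3 (1.88), and the fibrillar Col1a1, Col1a2 and Col3a1 differed by 0.62 to 0.66. The neural gene Gfra2, a neurturin receptor, differed by 2.17, S100b, of glia, by 2.08 and the neuropeptide Tac1 by -1.49. Of 8 measured neural and glial genes 2 were higher and 1 lower, with 2 more lower by bounds. Only 3 of the 8 lay above 0, and the median was -0.125 (0.06 with median scaling).

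Gastrin had the largest difference of any gastric hormone. Gast, made by G cells of the antrum, read 6.12, 19.7 and 32.3 in wild type and 20.8, 8.60 and 0.993 in null. At 50 weeks it was 32.6-fold lower (-5.03), the 50-week null level lay below all 5 other arrays, and the 5-week pair went the other way (1.77). The probe, shown because this single probe carries the largest hormone difference, lies on mm9 at chr11:100197806-100197865, plus strand (NM_010257), in a frame without stop codons.
Gast probe: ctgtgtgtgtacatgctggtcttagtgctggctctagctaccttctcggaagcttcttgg
Ghrelin (Ghrl, -0.48) and somatostatin (Sst, -0.47), made in the corpus and antrum, were under 2-fold apart. The prohormone convertases Pcsk2 (-2.15) and Pcsk1 (-2.05) and Tph1 (-1.99), which makes serotonin, were lower. All 18 measured hormone and amine genes lay below 0, 9 of them by at least 2-fold, with a median of -1.07, against 0.44 at 5 weeks. The antral transcription factor Pdx1 was not lower with gastrin: it read 0.273 in wild type and 0.540 in null (0.98). Irx3, a homeobox factor, differed by -1.20.

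The largest differences on the wild-type side were in genes of other tissues. Cela3a, a pancreatic elastase, read 44.2, 0.0236 and 13.3 in wild type and 46.7, 0.0348 and 0.0966 in null, with both 10-week levels not well above background. It was 138-fold lower in the old null mouse (-7.11, and -5.25 by a second probe), and it was high in both 5-week mice. Cpa1 (-6.81), Cela3b (-6.32), Cpb1 (-6.06), Pnlip (-5.95) and Ctrb1 (-4.84), further enzymes of the acinar pancreas, were likewise highest in the 5-week mice and next highest in the old wild-type mouse. Cela2a was at least 36.2-fold lower. Of 26 measured pancreatic enzyme genes 19 were lower and 1, Reg1, higher, with a median of -2.83, and -0.32 against the 10-week wild-type array. Amy2a5, an amylase, read 338 in wild type and 68.0 in null at 50 weeks and 87.7 and 12.5 at 10 weeks.

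Genes of cornified squamous epithelium, which lines the forestomach beside the glandular stomach, were also among the largest differences on this side. Of 18 measured keratin and cornified envelope genes 5 were lower and 1, Ivl (2.0), higher, and 10 more were lower by bounds. The median of the 18 was -0.11 (0.08 with median scaling), and 8 lay above 0. Lor, loricrin, read 0.0878, 3.46 and 9.42 in wild type and 0.181, 0.125 and 0.0834 in null (-6.82). Krt5, a basal keratin, differed by -4.51 by both its probes, Cnfn, cornifelin, by -5.33 and Asprv1, a protease of the skin barrier, by -4.54. Lce3b, Lce3a, Krtdap, Crct1, Lce3c, Krt6b and Lce1i, further genes of this epithelium, were at least 49.1-fold to 96.5-fold lower. All of these were above background on the 10-week and 50-week wild-type arrays, and Krt14 was as well (at least 10.8-fold lower). Krt13 differed by -0.14 by its brightest probe and by -3.72 by another. 2310057J18Rik had another pattern. It read 1.5 in the old wild-type mouse and 5.43 in the 10-week null mouse and was below background elsewhere, at least 58.6-fold lower at 50 weeks.

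Smooth muscle genes, which mark the muscularis mucosae and the muscle layers, were lower in the old null mouse by 11 of 16 measured genes, with a median of -1.93. Myh11, a smooth muscle myosin, read 0.166, 0.847 and 1.74 in wild type and 0.670, 1.20 and 0.286 in null. Cnn1, calponin, differed by -2.72, Des by -2.93 and Acta2 by -1.66. The summed level below was highest in the old wild-type mouse and lowest in the 5-week wild-type mouse, and the list median stood at 1.70 at 5 weeks, 0.33 at 10 weeks and -1.93 at 50 weeks. Plasma proteins of the liver had 11 of 14 genes lower and 5 more by bounds, with a median of -2.0. Alb, albumin, read 0.919, 9.59 and 1.36 in wild type and 1.31, 0.119 and 0.0639 in null (-4.41). The adipocyte gene Cfd was at least 25.1-fold lower. Of 5 measured adipocyte genes 0 were higher and 1 lower, 2 lay above 0, and the median was -0.05 (0.14 with median scaling). By bounds 2 of the list were lower, and 5 were below background on both arrays. Hba-a1, a haemoglobin chain of blood, stood at -0.38 at 50 weeks and at 2.42 at 5 weeks.

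Summed over its members, the smooth muscle list stood at 36.1, 81.5 and 125.8 in wild type at 5, 10 and 50 weeks and at 81.0, 106.7 and 46.5 in null. The liver list summed to 25.96, 142.0 and 49.0 in wild type and to 33.1, 21.6 and 15.9 in null. The pancreatic list summed to 1929, 1150 and 1702 in wild type and to 1876, 1185 and 1038 in null. In each list the summed levels of the genotypes overlapped. Such a sum is carried by the brightest probes and does not follow every member. At 10 weeks Cela3a was not well above background on either array, while the pancreatic sums were 1150 and 1185. Without the members of the other-tissue lists 337 genes were higher and 688 lower. Only listed genes were left out, any unlisted genes of these tissues stay in, and genes lower by bounds are not counted. These counts thus do not give the share of the differences that such tissue holds. The part of such tissue in the lower hormone, chief cell, intestinal and Cfd values was not tested.

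**Figure D4:**
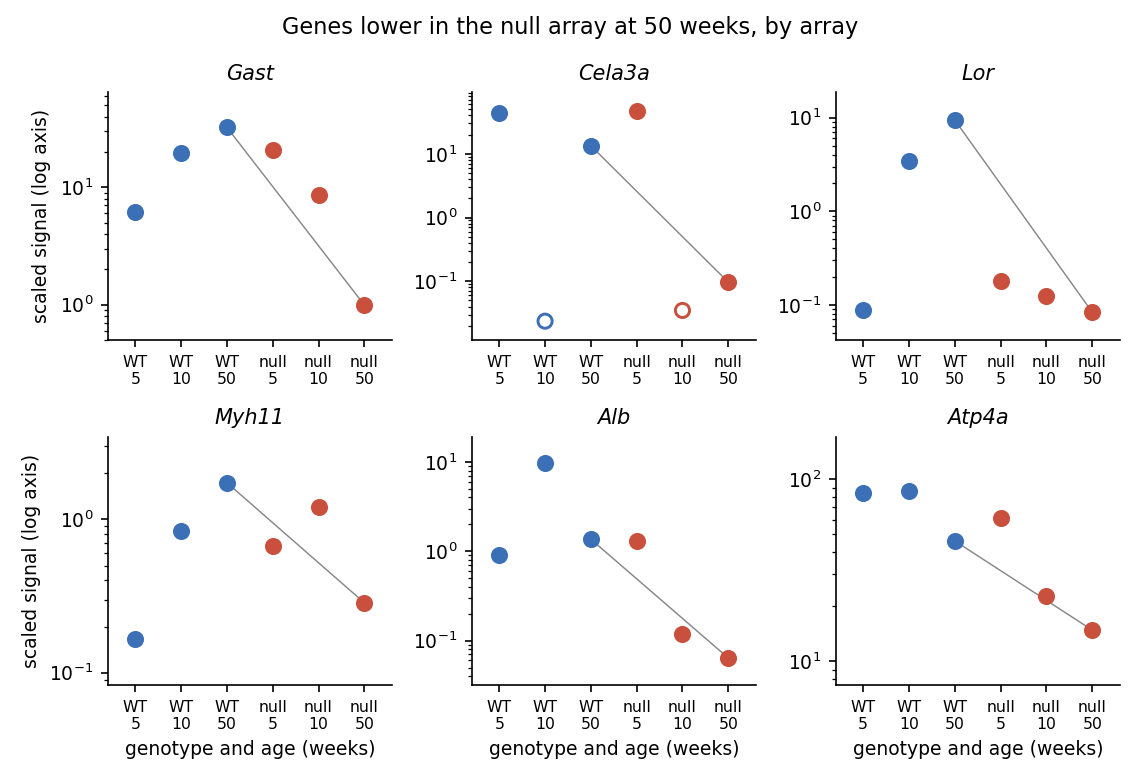
Scaled signal (log axis) of 6 genes lower in the null array at 50 weeks, by array (wild type blue, null red, 1 mouse a point, open where not well above background, line joining the 50-week pair). Cela3a is high in both 5-week mice and the old wild-type mouse, Lor in the 10- and 50-week wild-type mice, Myh11 highest and Alb second highest in the old wild-type mouse, while Atp4a and Gast are lowest in the old null mouse.

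Reference and respiratory chain genes were under 2-fold apart, which does not give the spread of other genes between single mice. Of 16 reference genes 0 were 2-fold apart, with a median of 0.24, Actb at -0.09 and Gapdh at 0.14. The 32 respiratory chain genes had 0 at 2-fold and a median of -0.19, with Cox4i1 at -0.33. Glycolysis and hypoxia genes had 3 of 22 higher, among them Car12 (1.79), a carbonic anhydrase, and Slc16a3 (1.53), a lactate exporter. Retinoid genes split, with the retinoic acid synthases Aldh1a3 at 3.06 and Aldh1a2 at -1.85 and the retinol-binding protein Rbp2 at -1.84. The cytochrome Cyp26b1, which breaks retinoic acid down, differed by 1.93 and the fatty acid hydroxylase Cyp4a10 by -2.79. Lipid genes had 1 of 25 higher, Bdh2 (2.36), and 6 lower, among them the fatty acid transporter Cd36 (-1.94) and the lipase Lpl (-1.87). The folding chaperone Hspa5 differed by 0.22 and Chac1, a target of the stress response, by -2.23. The clock gene Arntl stood at 0.02 and Hlf at -1.91. Among the mucin glycosyltransferases other than A4gnt, 1 of 24 measured genes was higher, St3gal4 (1.61), and 2 lower, B4galnt2 (-2.56) and Fut4 (-1.07).

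The 50-week differences were then looked for in the younger pairs, which share no array with it but share the slides. On all 6 arrays 15959 genes were above background. Of 281 that were at least 2-fold higher in the old null array, 139 (49.5%) were so at 5 weeks as well, where 3.51% of all genes were, and 124 (44.1%) at 10 weeks, where 3.74% were. Those 139 are 24.8% of the 560 genes higher at 5 weeks, and the 124 are 20.8% of the 597 higher at 10 weeks. Both younger pairs shared 71 of the 281, and 89 (31.7%) were in neither. Of 625 lower genes, 103 (16.5%) were so at 5 weeks and 392 (62.7%) at 10 weeks, where 4.69% and 5.31% of all genes were. These are 13.8% of 749 and 46.3% of 847 genes. Both younger pairs shared 82 of the 625, and 212 (33.9%) were in neither. In the opposite direction, 42 (14.9%) of the higher genes were at least 2-fold lower at 5 weeks, where 4.69% of all genes were. At 10 weeks 5 (1.78%) were, against 5.31% of all genes. Of the lower genes 41 (6.56%) were at least 2-fold higher at 5 weeks, against 3.51% of all genes. At 10 weeks 8 (1.28%) were, against 3.74%.

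Each 50-week array was also set against the mean of the 5- and 10-week wild-type arrays. Of the 281 higher genes the null array alone lay 2-fold away in 161 (57.3%), the wild-type array alone in 35 (12.5%), both in 4 and neither in 81. Of the 625 lower genes it was the null array in 490 (78.4%), the wild-type array in 44 (7.04%), both in 15 and neither in 76. The old null level lay outside the range of the 3 wild-type arrays in 208 of the 281 and 575 of the 625. By their selection these genes already had a null level 2-fold beyond the 50-week wild-type array. The same shares over all genes were not computed. The 3 wild-type arrays shared a slide and the null array was on the other, so slide and genotype cannot be told apart here either.

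Whether a genotype difference at 50 weeks exceeded the mean of those at 5 and 10 weeks was tested with limma over 17850 genes. Adjusted for multiple tests, 0 genes passed in either direction (0.0%), the smallest adjusted p was 1 by limma, and 405 had an unadjusted p under 0.05. All 10 other settings gave 0 as well, with 245 to 1656 genes at an unadjusted p under 0.05. The design leaves 1 residual degree of freedom, and in simulated data the test called 0% of genes changed 2-, 4-, 8- or 16-fold, so a count of 0 says nothing about which genes differ. Its estimates were 3.89 ± 0.74 (SE) for Ltf, 2.07 ± 0.38 for Reg3g, 3.39 ± 0.47 for Gbp2, -5.31 ± 1.42 for Gast and -7.43 ± 0.40 for Cela3a. The SE rests on how far the 5- and 10-week differences of a gene lay apart and on the spread of all genes. It holds no spread between mice at 50 weeks, so it does not give the precision of these estimates. For Cela3a both 10-week levels were not well above background.

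**Figure D5:**
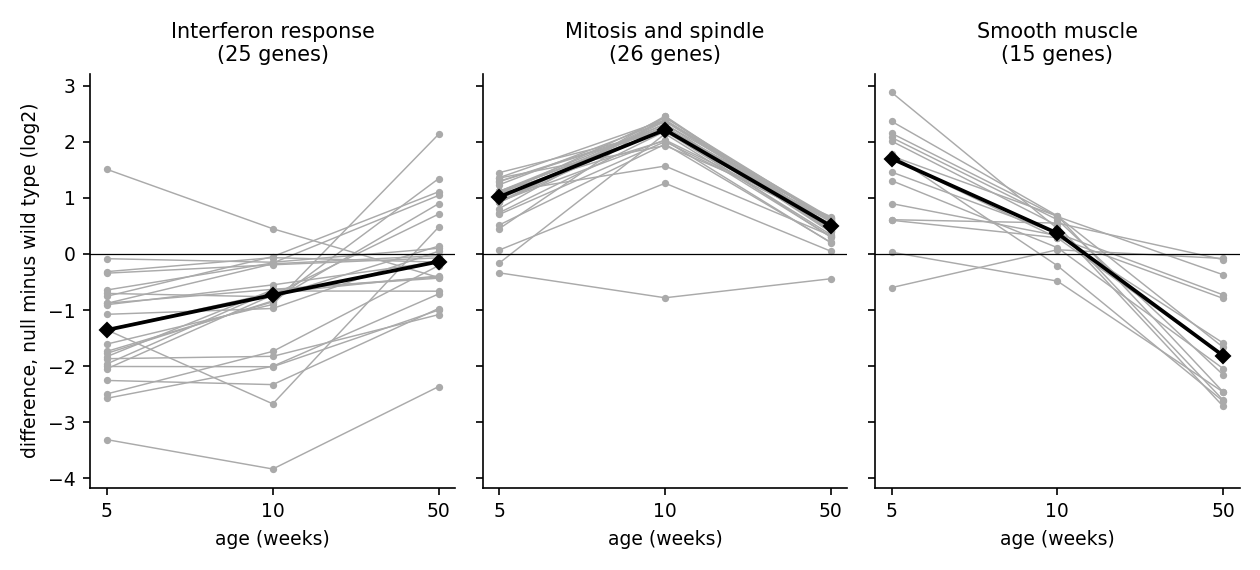
Differences (log2, null minus wild type) at 5, 10 and 50 weeks of the interferon response (25 genes), mitosis (26) and smooth muscle (15) genes above background on all 6 arrays; each grey line joins the values of 1 gene from 3 pairs of different mice and the black line the medians. Medians run from -1.35 to -0.14 for interferon, from 1.02 over 2.21 to 0.50 for mitosis, and from 1.70 to -1.81 for smooth muscle.

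The higher and lower genes were spread over the genome. On chromosome 9, which carries A4gnt, 2.37% of 885 measured genes were at least 2-fold higher and 4.97% lower. Within 20 Mb of A4gnt 3 of 285 genes (1.05%) were higher, Ltf among them, and 15 (5.26%) lower. Over the chromosomes the share of higher genes ran from 0.632% on chromosome 4 to 3.27% on chromosome 6, and the share of lower genes from 2.24% on chromosome 18 to 7.14% on chromosome 6, the chromosome of the Reg genes.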

How the data were processed

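Gene expression was measured on 6 one-colour Agilent arrays, 1 mouse each. The files the authors deposited hold spot intensity values from Agilent Feature Extraction 10.7.1.1, background-subtracted by that software, per the file headers, with probe positions on mm9. A deposited table of log2 values was also used, as an alternative. Its columns equal log2 of the processed intensity plus a constant of -7.88 to -8.54 for over 99% of probes, so its scale and direction are known while the basis of the constant is not given in the sources used here; its column medians were -3.56 to -3.89. Here the processed intensity was divided by the array's 75th percentile and log2 was taken. Control spots and outlier spots were left out, spots of a probe were averaged, and a gene was represented by its brightest probe. A gene counted as measured where well above background on both arrays, and differences of 2-fold or more were counted. Probes were named through RefSeq accessions (26164), symbols (3123) or synonyms (910), and 9232 kept the array's name. 

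The 50-week genotype difference was tested against the mean of those at 5 and 10 weeks with limma 3.58.1 in R 4.3.3, with Benjamini-Hochberg adjustment. This was tested on simulated data in 10 runs, with 200 of 17850 genes changed; 0% were called and there was 1 false call. Other values were computed in Python 3.11.15. Named genes were the 12 largest differences and 8 largest bounds per direction, and for each list its defining members and up to 4 with the largest differences. The compared mice and the lists were chosen with earlier results of these data known. Alternatives covered background correction, normalization, probe choice and the signal filter. Replicate spots of 1 array differed by a median SD of 0.0641 to 0.0725 (log2), which is technical and does not cover the spread between mice. Some genes that the rule names are not reported here.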

Additional observations from a re-analysis of the deposited data

Results flagged for a closer look

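For 6 genes and 1 list the old pair differed in one direction and both younger pairs in the other, each pair being 1 mouse against 1. The limma test of 50 weeks against 5 and 10 weeks called none of these genes (adjusted p of 1 for each), and the difference of the list was not tested. Gbp2, a guanylate-binding protein, stood at 2.13 at 50 weeks, -1.60 at 5 weeks and -0.90 at 10 weeks, and Igtp, a related GTPase, at 1.34, -1.74 and -0.85. Tff3, a trefoil peptide, stood at -1.52, 1.36 and 0.77, and Ccl21a, a lymphoid chemokine, at -1.17, 1.20 and 1.62. Acta2, smooth muscle actin, stood at -1.66, 1.75 and 0.67, and Myh11, smooth muscle myosin, at -2.60, 2.01 and 0.51. The median of the smooth muscle list was -1.93 at 50 weeks, 1.70 at 5 weeks and 0.33 at 10 weeks. The 5-week mice also differed from the older ones in sex-linked transcripts, whose part in these values was not tested.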

How the results depend on the processing

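With the normexp background correction 183 genes were at least 2-fold higher and 303 lower, against 341 and 736, and 174 of the 341 and 303 of the 736 stayed past 2-fold. With no filter on signal there were 957 and 2792. Set against the 10-week wild-type array, an alternative chosen after seeing the data, 775 were higher and 1390 lower, of which 196 and 559 were among the 341 and 736. Differences seen again at both younger ages numbered 153, with 65 under normexp and 386 with no filter. Those carried by the null array alone numbered 651, with 312 under normexp and 1904 with no filter. The A4gnt bound of 36.4-fold was 7.01-fold under normexp, 29.8-fold under quantile normalization and 32.0-fold under median scaling. All 4 scalings (normexp, quantile, median, deposited table) kept 164 of the higher and 284 of the lower genes. The cause of these shifts was not tested. Within the 50-week pair no named gene past 2-fold changed sign under these scalings and filters. Against the 10-week wild-type array single genes were not run as results, and some turn: Ctrb1 read 0.300 in the old null mouse and 0.215 in that array, and S100a8 read 0.184 and 0.406. The limma count stayed at 0 under its 10 alternatives, with the smallest adjusted p, 0.2615 by limma, under normexp. No paired analysis was possible because groups of 1 mouse give fewer than 2 replicate numbers to pair by. The limma fit already held age as a term, and without it 0 genes were called and 245 had an unadjusted p under 0.05. Leaving out an array would leave a side of the comparison empty. Signals near background limit the low genes, for which only bounds are given.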

Other observations

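The genes in this paragraph were chosen after their values were seen. Nnt, the mitochondrial transhydrogenase, read 2.91, 3.22 and 4.07 in wild type at 5, 10 and 50 weeks and 2.99, 1.18 and 1.03 in null, so the 5-week pair was alike and the older null mice were lower. Meg3, an imprinted noncoding RNA, was lower in null at all 3 ages, by -1.25, -2.23 and -3.31. Pxylp1, a xylose phosphatase gene near A4gnt on chromosome 9, was lower by -2.49, -2.23 and -2.06. Foxb1, a forkhead factor named by the rule for bounds, was above background on the 50-week null array alone, at 0.662, at least 17.6-fold higher than in wild type.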
